A study of Mus musculus with 15 samples.

Results

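The 10 genes described here, *Havcr1*, *Lcn2*, *Vcam1*, *Clu*, *Aoc1*, *Dpysl3*, *Myof*, *Sytl2*, *Stra6* and *Stap2*, are markers of injured kidney tubules. They were taken by gene symbol from the 56748 genes of the count table, all 10 were found, and all 10 passed the filter on low counts in kidney and in lung. The list was chosen with the kidney results of these libraries known, and which kidney comparison chose it is not recorded. The kidney values of the 10 genes are therefore a description, selected on their readout, and no p-value is given for them. The lung libraries are separate from the kidney libraries, and the lung comparison is given with its test on the assumption that kidney results made the choice.

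The libraries came from male wild-type C57Bl/6 mice. WTK kidneys (n = 3) came from mice given the vehicle of folic acid, and their labels name no antibody. IgGK and LepK kidneys (n = 3 each) came from mice given folic acid (200 mg/kg, 1 intraperitoneal injection) and then, for 21 days at 10 mg/kg, either control IgG (IgGK) or the leptin-neutralizing antibody LepAb (LepK). Kidney donors were 10 to 12 weeks old and were euthanized on day 28. IgGL and LepL lungs (n = 3 each) came from mice aged 12 weeks given bleomycin into the trachea at 1.5 units/kg, with control IgG (IgGL) or LepAb (LepL) for 14 days, and euthanized on day 14. No lung of a mouse without bleomycin was analysed here, so no lung value has an uninjured reference. Folic acid was given to both IgGK and LepK, and bleomycin to both lung groups.

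Folic acid at a high dose crystallizes in the tubules and injures their epithelium. Proximal tubule cells that survive lose their transporters and take up a repair program, in which proteins that are scarce in healthy tubules are made, shed into the urine or placed on the cell surface. *Havcr1* (the gene of KIM-1) and *Lcn2* (the gene of NGAL) are used as urine and tissue markers of this state, and *Vcam1* marks tubule cells that fail to complete repair.

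Levels within an organ are given as normalized CPM, the CPM of a library after scaling by trimmed mean of M-values (TMM) factors. Total counts per library ranged from 25913969 to 38924788, so 1 count stood for 0.0257 to 0.0386 CPM before the TMM scaling. A gene was called when its absolute log2 fold change (log2FC) exceeded 0.5 at a Benjamini-Hochberg adjusted p under 0.05 over all genes tested in the edgeR quasi-likelihood fit of its organ. Genes of neighboring organs stood out in some libraries, and were noticed after the values were seen. The adrenal cortex gene *Cyp11b1* was at 74.7 and 103 normalized CPM in IgGK replicates 1 and 2 and at most 1.13 in the other kidneys. The liver gene *Alb* was at 697 normalized CPM in LepK replicate 2 and at most 74.0 in the other kidneys. Values without these libraries are given below for some of the lists and comparisons, and not for every count that differs. The libraries are bulk tissue, in which fewer cells of a type and less RNA per cell cannot be told apart.

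The stretches upstream of 3 of the genes are shown. *Havcr1*, *Lcn2* and *Aoc1* had, with *Stra6* (not shown), the highest IgGK to WTK ratios. The order WTK, LepK, IgGK did not set them apart, as all 10 genes had it. Of the 2 *Aoc1* starts, the one with a motif match is shown. Each stretch is the 250 bases before an annotated start, 5′ to 3′ on the strand of the gene, from RefSeq (GRCm38.p6, not the build of the count table). The *Lcn2* stretch lies at chr2:32387740-32387989 on the minus strand, that of *Havcr1* at chr11:46739973-46740222 on the plus strand, upstream of the first of 3 starts, and that of *Aoc1* at chr6:48904736-48904985 on the plus strand, upstream of the second of 2 starts. Capitals mark matches to the motifs searched.
Lcn2: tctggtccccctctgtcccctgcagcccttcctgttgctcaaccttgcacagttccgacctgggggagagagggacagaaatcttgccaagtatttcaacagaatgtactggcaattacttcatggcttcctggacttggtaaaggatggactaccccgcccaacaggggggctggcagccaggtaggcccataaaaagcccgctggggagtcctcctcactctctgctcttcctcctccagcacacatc
Havcr1: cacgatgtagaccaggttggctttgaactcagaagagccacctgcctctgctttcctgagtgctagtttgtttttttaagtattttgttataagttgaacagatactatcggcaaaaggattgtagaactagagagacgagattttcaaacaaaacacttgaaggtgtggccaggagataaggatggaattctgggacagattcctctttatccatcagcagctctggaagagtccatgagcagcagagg
Aoc1: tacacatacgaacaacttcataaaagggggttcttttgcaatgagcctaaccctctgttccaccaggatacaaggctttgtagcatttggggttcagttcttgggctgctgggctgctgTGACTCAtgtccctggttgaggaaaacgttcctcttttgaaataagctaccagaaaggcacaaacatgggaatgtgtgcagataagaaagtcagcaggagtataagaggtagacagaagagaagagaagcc

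Starts of 6 of the 10 genes were taken from RefSeq by symbol (*Havcr1*, *Lcn2*, *Aoc1*, *Myof*, *Stra6* and *Stap2*), with 13 starts in all. *Vcam1*, *Clu* and *Sytl2* gave no match, and *Dpysl3* was set aside in this search without regard to a match. On both strands, the TATA box motif (TATAAA) was in 12.37% of all 32851 windows of this length, the STAT motif (TTCNNNGAA) in 7.02%, the AP-1 motif (TGANTCA) in 6.75% and the NF-kB motif in 3.90%. Of the 13 windows of these 6 genes, 1 held a match, the AP-1 motif shown in *Aoc1*, which begins 131 bases before that start. A match describes letters in the window and not a bound site.

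*Havcr1* encodes a phosphatidylserine receptor of the tubule cell surface whose outer part is shed. Its level was 1.12, 1.58 and 0.577 normalized CPM in the 3 WTK kidneys, 155, 117 and 141 in IgGK, and 55.4, 55.3 and 74.0 in LepK. The 3 groups did not overlap, with WTK lowest and IgGK highest. The ratio of the IgGK mean to the WTK mean was 126, the highest of the 10 genes, and the log2FC was 6.99 ± 0.23 (SE). LepK stood −1.16 ± 0.15 below IgGK on the log2 scale, which left it 5.83 ± 0.23 above WTK. The table places *Havcr1* (ENSMUSG00000040405) on chr11:46625907-46670405 of GRCm39.

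*Lcn2* encodes the secreted lipocalin that binds bacterial iron carriers and is released by injured tubules and by neutrophils. It was at 2.49, 4.62 and 2.99 normalized CPM in WTK, 114, 152 and 118 in IgGK, and 43.2, 52.0 and 54.5 in LepK. Again the groups lay apart in the order WTK, LepK, IgGK. IgGK exceeded WTK by a log2FC of 5.25 ± 0.19 (SE), and LepK against IgGK gave −1.36 ± 0.15, the deepest of the 10 genes. *Lcn2* (ENSMUSG00000026822) lies on chr2:32274645-32278264 of GRCm39, and no other gene of the table overlaps it.

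*Clu* encodes clusterin, a secreted chaperone that is already made by healthy tubules. Its level was 185, 228 and 219.7 normalized CPM in WTK, 748, 856 and 771 in IgGK, and 562, 649 and 613 in LepK. *Clu* differed from the preceding genes in its high WTK level, and its IgGK to WTK ratio was 3.76, the lowest of the 10. The log2FC of LepK against IgGK was −0.38 ± 0.09 (SE), short of the fold threshold, although the groups did not overlap, and with scaling by library size alone it was −0.56 and called. The gene (ENSMUSG00000022037) is on chr14:66205932-66218996 of GRCm39.

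*Vcam1* encodes a cell adhesion molecule that binds the integrin made of the *Itga4* and *Itgb1* products on leukocytes. It was measured at 6.69, 10.2 and 11.4 normalized CPM in WTK, 263, 275 and 236 in IgGK, and 110.1, 138 and 169.7 in LepK. The LepK kidneys spread widely but stayed below every IgGK kidney. The 2 log2FC values were 4.77 ± 0.20 (SE) for IgGK over WTK and −0.89 ± 0.16 for LepK against IgGK. Without the 2 IgGK libraries that held *Cyp11b1* the second value was −0.75 and *Vcam1* was no longer called. *Vcam1* (ENSMUSG00000027962, chr3:115903598-115923337 of GRCm39) overlaps the lncRNA gene Gm43109, which had at most 1 count in a library.

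*Aoc1* encodes diamine oxidase, the secreted enzyme that breaks down histamine and putrescine. Its normalized CPM was 2.74, 3.67 and 3.14 in WTK, 149, 144 and 153 in IgGK, and 54.3, 75.5 and 92.9 in LepK. The IgGK kidneys lay close together while the LepK kidneys spread over a SD of 19.4. IgGK stood 5.54 ± 0.19 (SE) above WTK on the log2 scale, and the log2FC of LepK against IgGK was −1.002 ± 0.15. *Aoc1* (ENSMUSG00000029811) is on chr6:48849830-48886122 of GRCm39.

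*Stra6* encodes the membrane receptor that takes up retinol from its plasma carrier. It was nearly silent in WTK, at 1.41, 1.18 and 0.577 normalized CPM, and reached 81.8, 88.1 and 91.5 in IgGK. LepK held 40.9, 67.2 and 74.6, with replicate 1 well under the other LepK kidneys. A log2FC of 6.38 ± 0.28 (SE) separated IgGK from WTK, and one of −0.52 ± 0.18 LepK from IgGK, and the second was not called. It was called without LepK replicate 3 (−0.69), with no filter on low counts (−0.52) and with scaling by library size alone (−0.69). *Stra6* (ENSMUSG00000032327, chr9:57971071-58061279 of GRCm39) overlaps Ccdc33 and Gm16131, and as the libraries do not keep strand, reads of overlapping parts cannot be assigned. The overlapping genes had at most 187 counts in a library, against a maximum of 3167 for *Stra6* in an IgGK kidney. *Stra6* itself had only 16 to 34 counts in the WTK kidneys and 12 to 59 in the lungs. The part of the overlapping genes in these low counts was not tested.

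*Dpysl3* encodes a cytoskeletal protein of the collapsin response mediator family. It was at 9.18, 10.2 and 9.27 normalized CPM in WTK, 99.5, 94.7 and 101 in IgGK, and 49.1, 58.4 and 65.5 in LepK. Each group was compact and none overlapped another. Its log2FC came to 3.36 ± 0.11 (SE) for IgGK over WTK and to −0.77 ± 0.09 for LepK against IgGK. It is listed as ENSMUSG00000024501.

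*Myof* and *Sytl2* act at membranes, myoferlin in membrane repair and fusion and synaptotagmin-like protein 2 in docking vesicles to the cell surface through RAB27. *Myof* (ENSMUSG00000048612, chr19:37887484-38032025 of GRCm39) was at 20.8, 20.3 and 21.8 normalized CPM in WTK, 137, 149 and 141 in IgGK, and 70.1, 85.3 and 96.3 in LepK. *Sytl2* (ENSMUSG00000030616, chr7:89951460-90059927) was at 17.4, 15.8 and 16.2 in WTK, 109.7, 124 and 120.1 in IgGK, and 58.6, 78.5 and 79.8 in LepK. Both genes thus showed the same order of groups without overlap. The log2FC of IgGK against WTK was 2.76 ± 0.10 (SE) for *Myof* and 2.84 ± 0.11 for *Sytl2*. That of LepK against IgGK was −0.76 ± 0.10 for *Myof* and −0.71 ± 0.10 for *Sytl2*.

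*Stap2* encodes a signal adaptor protein that binds STAT3 and STAT5. It was at 13.2, 13.0 and 13.4 normalized CPM in WTK, 51.9, 54.0 and 51.4 in IgGK, and 41.3, 48.4 and 50.5 in LepK. The highest LepK kidney almost reached the lowest IgGK kidney. The log2FC was 1.99 ± 0.08 (SE) in IgGK against WTK, and that of LepK against IgGK, −0.17 ± 0.08, was the smallest of the 10 and not called. *Stap2* (ENSMUSG00000038781) lies on chr17:56304077-56312584 of GRCm39.

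**Figure D1:**
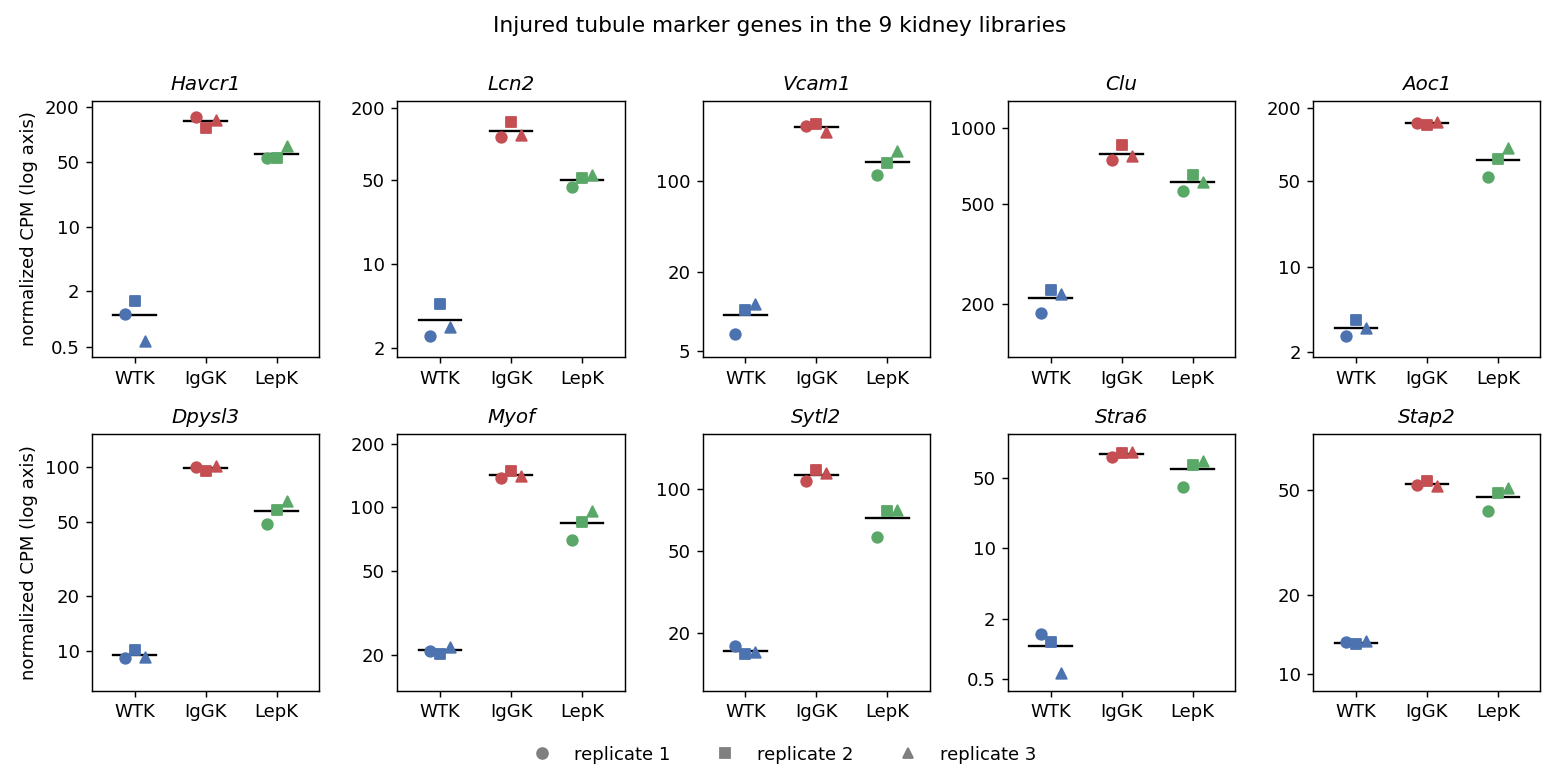
Normalized CPM (log axis, a separate range per panel) of each gene in the 3 WTK, 3 IgGK and 3 LepK kidneys, with a marker shape per replicate number and a line at the group mean. In every panel the LepK kidneys lie above all WTK and below all IgGK kidneys.

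In IgGK against WTK, the 10 genes were all called up, where 21.7% of the 19593 genes tested in kidney were called up and 15.6% down. In LepK against IgGK, 7 of the 10 were called down and none up, where 5.99% of all genes were called down and 4.38% up. *Clu*, *Stra6* and *Stap2* were the 3 not called. In LepK against WTK the 10 genes were all called up, where 15.2% of all genes were called up and 7.30% down. Without overlap between groups in normalized CPM, all 10 were higher in IgGK than in WTK (32.5% of all genes), all 10 lower in LepK than in IgGK (19.5%), and all 10 higher in LepK than in WTK (25.6%). The kidney groups share libraries between these comparisons, and since the kidney values chose the genes nothing is read from these counts. The median log2FC of the 10 genes was 4.07, −0.77 and 3.23 in the 3 comparisons, beside 0.04, −0.01 and 0.03 over all genes tested. When libraries were scaled by their size only, the median over all genes became 0.48, −0.19 and 0.29, and under it 10, 9 and 10 of the 10 genes were called, in the same directions. Of all 19593 genes, 7803, 2185 and 4782 were then called in these directions. Without the 2 IgGK libraries that held *Cyp11b1*, which leaves 1 IgGK library, the median log2FC of the 10 genes was 4.02 in IgGK against WTK. It was then −0.75 in LepK against IgGK. Without the LepK library that held *Alb*, 10 were called up in LepK against WTK, beside 2512 of the 20242 genes tested.

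**Figure D2:**
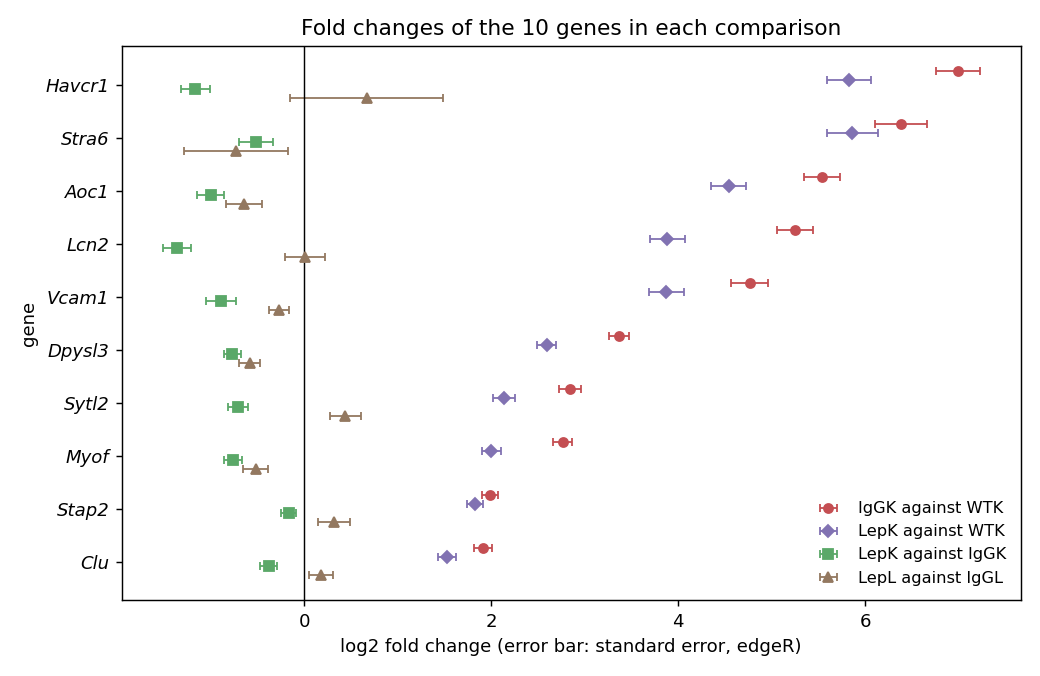
The log2 fold change (x axis) of each gene (y axis, ordered by IgGK against WTK) in the 4 comparisons, with error bars for the SE of the edgeR fit. In LepK against IgGK the values run from −1.36 (*Lcn2*) to −0.17 (*Stap2*), while those of LepL against IgGL lie on both sides of 0.

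The 10 genes differed in how much of the folic acid difference was left under LepAb. With the WTK mean set to 0% and the IgGK mean to 100%, the LepK mean stood at 37.2% for *Lcn2*, 44.2% for *Havcr1* and 48.9% for *Aoc1*, whose products are shed or secreted. It was 51.9% for *Myof*, 52.2% for *Vcam1*, 54.2% for *Dpysl3* and 55.04% for *Sytl2*. The highest values were those of *Clu* (68.4%, also secreted), *Stra6* (69.5%) and *Stap2* (85.5%). The median over the 10 genes was 53.2%. Within a gene the 3 LepK kidneys spread by a SD of 4.76 (*Lcn2*) to 20.6 (*Stra6*) percentage points, so neighbors in this order are not set apart by it.

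**Figure D3:**
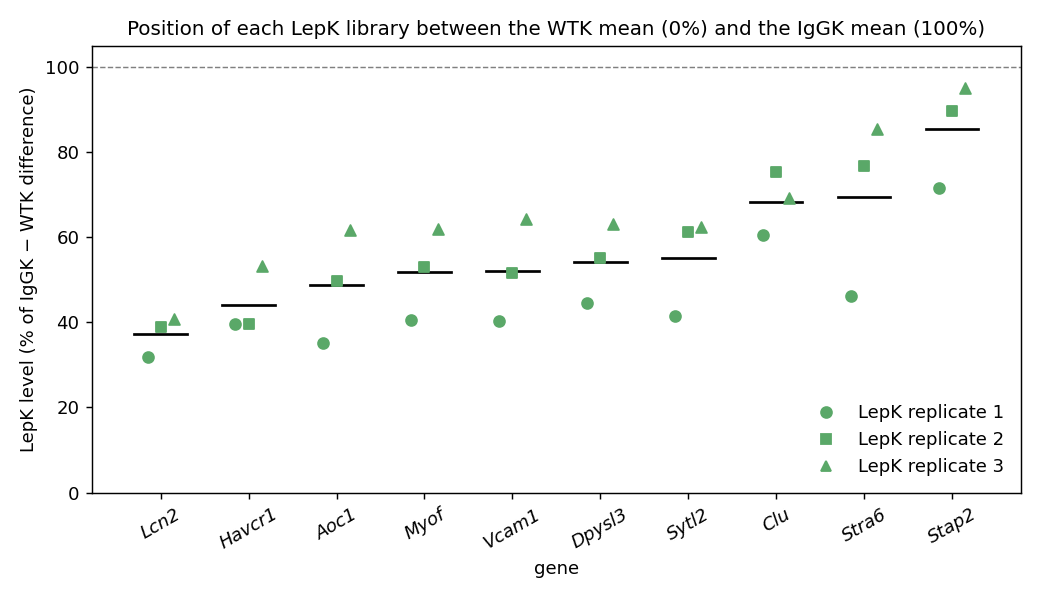
Each LepK kidney placed between the WTK mean (0%) and the IgGK mean (100%, dashed line) for each gene, with a line at the mean of the 3. Replicate 1 is lowest for 9 of the 10 genes, and the means run from 37.2% (*Lcn2*) to 85.5% (*Stap2*).

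The LepK kidneys kept much the same order from gene to gene. Replicate 1 was the lowest of the 3 for 9 of the 10 genes (the exception was *Havcr1*, at 55.4 normalized CPM against 55.3 in replicate 2), and replicate 3 was the highest for 9 (the exception was *Clu*). Over all genes tested, 36.1% were lowest in replicate 1 and 29.4% highest in replicate 3. The 10 genes summed to 260 to 308 normalized CPM in WTK, 1911 to 2055 in IgGK, and 1085, 1308 and 1371 in LepK replicates 1 to 3. The 12 proximal tubule markers, transporters and enzymes of the healthy cell, summed to 14718 normalized CPM in LepK replicate 1 and to 10857 and 11392 in the other LepK kidneys. WTK held 25089 to 26631 and IgGK 5562 to 7772 of these markers. The 12 macrophage markers summed to 766, 1131 and 1121 in the 3 LepK kidneys, and their part in the order was not tested.

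Per length, the genes were far from equal. Taken as deposited FPKM in IgGK, *Clu* led with 186 ± 13.2 (SD, n = 3), followed by *Havcr1* with 48.1 ± 6.74, *Lcn2* with 39.4 ± 6.42 and *Aoc1* with 36.8 ± 1.05. *Havcr1* overlapped *Lcn2*, and *Lcn2* overlapped *Aoc1*. *Vcam1* stood at 23.5 FPKM and *Stap2* at 16.4. On this scale the *Stap2* range of LepK (13.23 to 16.08 FPKM) overlapped that of IgGK (16.06 to 16.95 FPKM), unlike in normalized CPM. *Stra6*, *Dpysl3*, *Myof* and *Sytl2* came last at 12.05, 11.99, 9.10 and 6.81 FPKM, and the first 2 of these overlapped. In WTK the order was another one, with *Clu* at 50.7 FPKM and *Stap2* at 4.25 FPKM in front, and *Havcr1* at 0.391 and *Stra6* at 0.150 FPKM at the end.

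Bleomycin lungs expressed most of the 10 genes too. *Lcn2* had 132 ± 37.6 FPKM in IgGL and 136 ± 21.9 in LepL (SD, n = 3), above every kidney library. *Myof* was also higher in each lung group than in any kidney group, at 17.7 FPKM in IgGL against 9.10 in IgGK. *Dpysl3* in IgGL (12.05 FPKM) overlapped IgGK (11.99 FPKM), and in LepL it overlapped LepK. *Vcam1*, *Aoc1*, *Clu* and *Stap2* stood between WTK and IgGK, and the lung values of *Clu* and *Stap2* overlapped between LepL and IgGL. *Havcr1* had 0.0888 FPKM in IgGL and 0.147 in LepL, and *Stra6* 0.142 and 0.0882, which for each gene overlapped a neighboring group up to WTK. *Sytl2* in LepL (0.827 FPKM) overlapped WTK (0.974 FPKM), and IgGL (0.597 FPKM) was lower. These levels set organs beside each other that also differ in injury, antibody schedule and age.

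**Figure D4:**
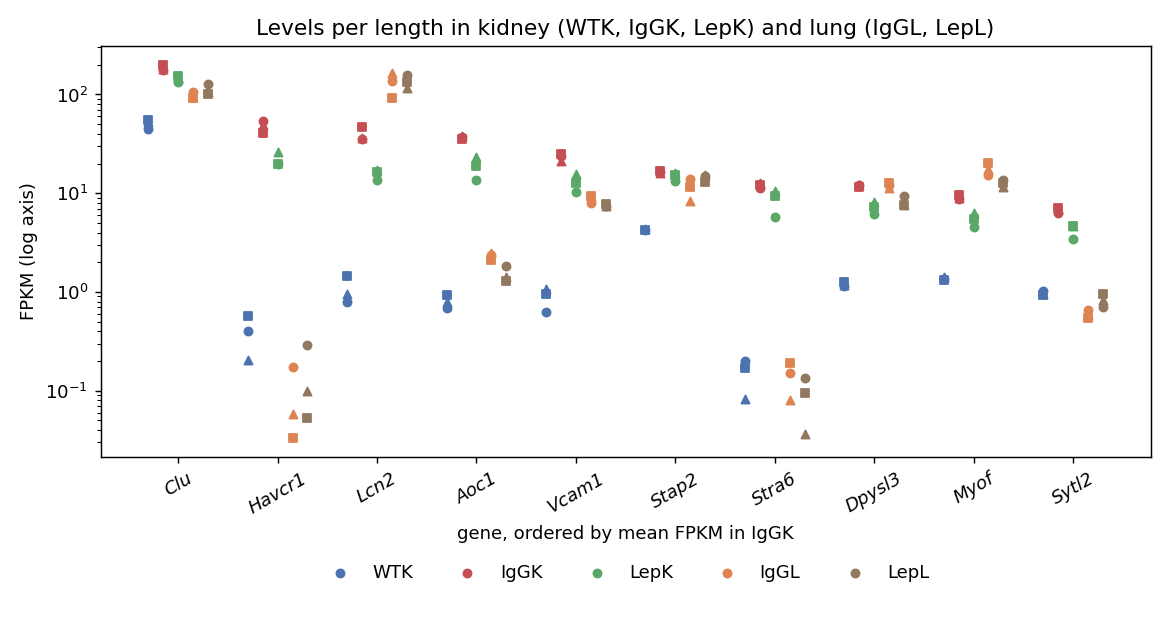
Deposited FPKM (log axis) of each gene in the 15 libraries, with a color per group and a marker shape per replicate. *Lcn2* and *Clu* are near or above 100 FPKM in lung, while *Havcr1* and *Stra6* stay below 1 FPKM in lung and in WTK.

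The lung comparison asked whether LepAb changed these genes in another injured organ. Of the 10 genes, 1 was called, *Dpysl3*, which fell, where 2.36% of the 19617 genes tested in lung were called down and 1.78% up. *Dpysl3* was at 114, 124 and 111 normalized CPM in IgGL and 89.1, 71.7 and 72.1 in LepL. The groups did not overlap, and the log2FC was −0.58 ± 0.11 (SE, edgeR adjusted p = 0.0369). The call was lost when any 1 library other than IgGL replicate 1 was left out (log2FC −0.69 to −0.53). Over all genes tested, those runs called at most 18 up and 4 down (without LepL replicate 1), instead of 349 up and 463 down. At an unadjusted p under 0.05, 5 of the 10 genes passed, beside 5357 of the 19617 genes tested. DESeq2 called 3, all down, where it called 1242 of all genes up and 1108 down.

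*Myof*, *Aoc1* and *Vcam1* were lower in every LepL lung than in every IgGL lung without passing the test. *Myof* was at 275, 371 and 332 normalized CPM in IgGL and 246, 229 and 207 in LepL, with a log2FC of −0.52 ± 0.14 (edgeR adjusted p = 0.0604). *Aoc1* was at 11.2, 9.97 and 12.04 in IgGL and 8.55, 6.08 and 6.60 in LepL, with −0.64 ± 0.19 (edgeR adjusted p = 0.0797). *Vcam1* was at 101, 122 and 123 in IgGL and 93.9, 98.2 and 93.8 in LepL, with −0.27 ± 0.11 (edgeR adjusted p = 0.141). DESeq2 also called *Aoc1* and *Myof*. With *Dpysl3*, 4 of the 10 genes were lower without overlap, beside 17.3% of all genes tested in lung, and 1 was higher, *Sytl2*, beside 16.0%. *Sytl2* was at 13.3, 11.1 and 12.1 normalized CPM in IgGL and 14.01, 19.1 and 16.3 in LepL, with a log2FC of 0.44 ± 0.16 (edgeR adjusted p = 0.129). All 3 LepL lungs were above the IgGL lungs, whereas all 3 LepK kidneys were below the IgGK kidneys.

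*Lcn2*, *Clu* and *Stap2* overlapped between the lung groups. *Lcn2* was at 517, 353 and 648 normalized CPM in IgGL and 594, 502 and 432 in LepL, a log2FC of 0.01 ± 0.22 (edgeR adjusted p = 0.983). *Clu* was at 518, 459 and 477 in IgGL and 632, 498 and 515 in LepL, a log2FC of 0.18 ± 0.13 (edgeR adjusted p = 0.410). *Stap2* was at 51.5, 43.5 and 31.6 in IgGL and 54.1, 48.3 and 55.6 in LepL, a log2FC of 0.32 ± 0.17 (edgeR adjusted p = 0.254). *Havcr1* had 21, 4 and 6 counts in the IgGL lungs and 29, 6 and 13 in LepL, and *Stra6* 46, 59 and 21 and then 34, 27 and 12. The groups overlapped for both genes. Their log2FC was 0.67 ± 0.82 for *Havcr1* and −0.73 ± 0.55 for *Stra6* (edgeR adjusted p = 0.639 and 0.432). Over the 10 genes the median log2FC in lung was −0.13, beside 0.00 over all genes tested.

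**Figure D5:**
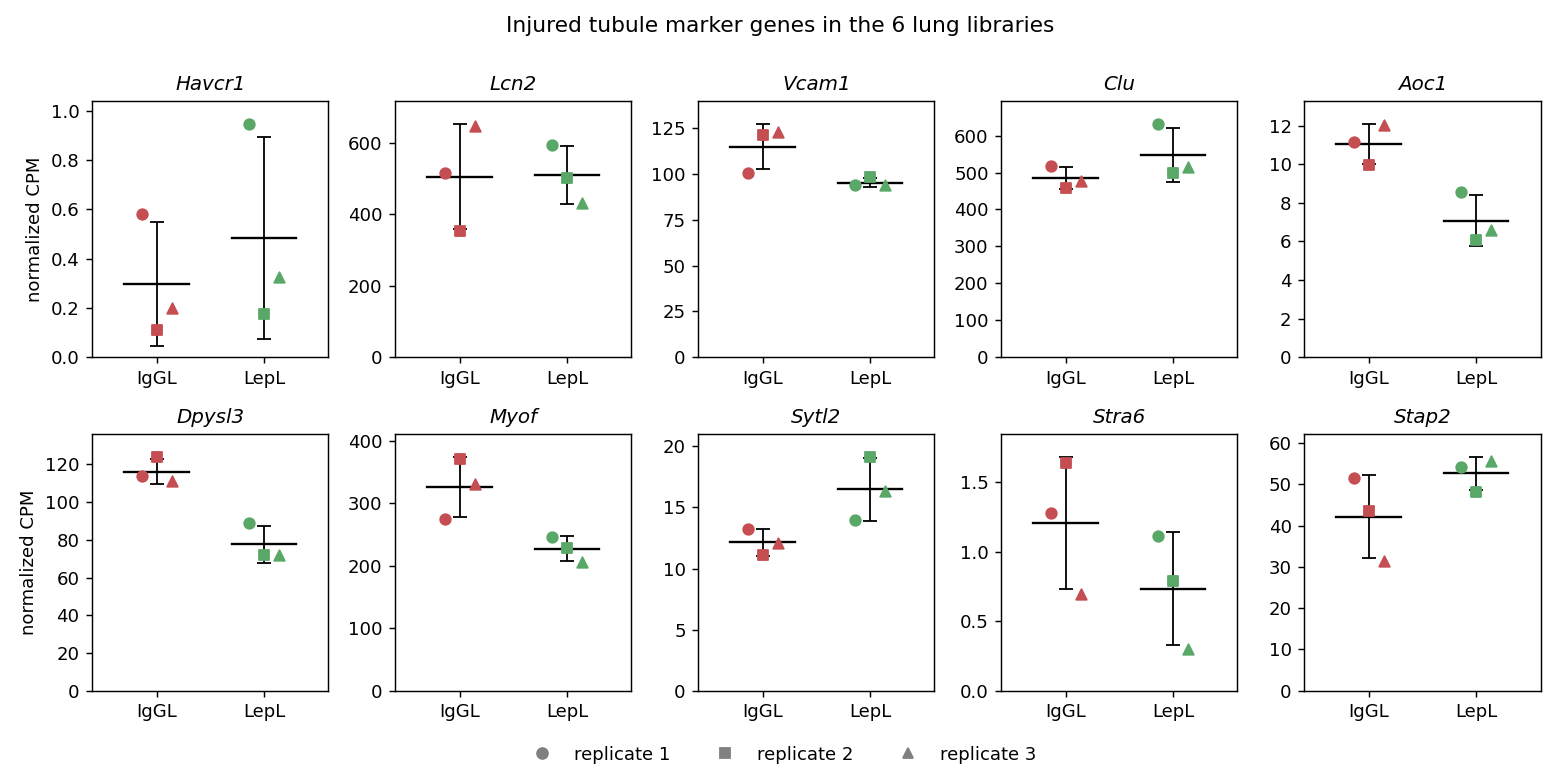
Normalized CPM (linear axis from 0) of each gene in the 3 IgGL and 3 LepL lungs, with the mean and SD of each group. *Dpysl3*, *Myof*, *Aoc1* and *Vcam1* lie lower in LepL without overlap, *Sytl2* lies higher, and the other panels overlap.

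Cell markers moved in lung beside these values. The 10 neutrophil markers, cells that also store the *Lcn2* product, summed to 155 to 382 normalized CPM in IgGL and 61.2 to 92.9 in LepL, and 4 of the 8 tested fell, among them *Retnlg* (log2FC −2.18, edgeR adjusted p = 0.0327). Of the 10 fibroblast markers, 6 fell, led by *Col1a1* at −1.21 ± 0.20 (edgeR adjusted p = 0.0327), and the list summed to 7969 to 9042 in IgGL and 3697 to 4957 in LepL. Of the 9 lung epithelium markers, 3 rose, among them *Lamp3* (1.62 ± 0.34) and the surfactant gene *Sftpc* (1.40 ± 0.28), and the list summed to 16654 to 22721 in IgGL and 30979 to 48182 in LepL. Of the 12 macrophage markers 4 fell, led by *Itgam* (−1.59 ± 0.34), though the list summed to 5389 to 8382 in IgGL and 9206 to 9939 in LepL. None of the 9 lymphocyte markers was called, at a median log2FC of 0.91 and sums of 43.0 to 133 in IgGL and 104 to 218 in LepL that overlapped, but 7 were called up with no filter on low counts or without IgGL replicate 1, and DESeq2 called 2. The lung calls of these lists and of the lists below were lost when any 1 library other than IgGL replicate 1 was left out, except for 1 fibroblast call without IgGL replicate 3. The part of these cells in the lung values of the 10 genes was not tested. The proximal tubule markers *Slc22a6*, in both groups, *Slc34a1*, in IgGL, and *Slc22a8*, in LepL, were at 0 in lung, as was *Umod* in IgGL. *Fgb*, of the injured tubule list, and *Timd2*, a relative of *Havcr1*, were at 0 in LepL.

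A further 30 genes known from injured tubules gave the surroundings of the 10 in kidney. In IgGK against WTK 26 rose and 1 fell, with a median log2FC of 2.27. *Krt20*, a keratin, rose most (6.50 ± 0.19), then *Fgb*, a fibrinogen chain that is also a liver product (5.29 ± 1.35), and the integrin gene *Itgb8* fell (−0.56 ± 0.10). From IgGK to LepK 19 fell and none rose, with a median of −0.58. The largest falls were those of *Anxa1*, an annexin (68.7 to 31.3 normalized CPM, −1.14 ± 0.20), and *Sox9*, a transcription factor of tubule repair (17.5 to 8.42, −1.06 ± 0.18). Without the 2 IgGK libraries that held *Cyp11b1*, which leaves 1 IgGK library, 7 of the 30 passed the test, at a median of −0.53, and 11 did without LepK replicate 1. In LepK against WTK 25 rose, led by *Fgb* (6.20 ± 1.34) and *Krt20* (5.87 ± 0.19), and *Itgb8* fell (−0.54 ± 0.10). *Fgb* ranged from 0.955 to 31.1 normalized CPM in LepK and was highest in replicate 2, the library with the high *Alb*. Without that library 25 rose and *Itgb8* was not called. *Itgb8* was also not called against WTK in either comparison without WTK replicate 2, nor in IgGK without IgGK replicate 2. In lung 1 of the 29 tested rose, *Dcdc2a* (1.76 ± 0.36), and 2 fell, *Spp1* (−1.97 ± 0.36) and *Cp* (−0.79 ± 0.13), at a median of −0.48. Without overlap, 11 were lower in LepL and 2 higher, beside 17.3% and 16.0% of all genes. DESeq2 called 8 down and 1 up, and without IgGL replicate 1 there were 14 down and 3 up. The calls of this and the following lists passed an edgeR adjusted p under 0.05.

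Markers of the healthy tubule moved the other way. All 12 proximal tubule genes fell in IgGK against WTK, among them the glucose transporter gene *Slc5a2* (350 to 51.7 normalized CPM, −2.76 ± 0.12) and *Acsm2* (−2.15 ± 0.22). In LepK against IgGK 10 rose, led by *Miox* (1.11 ± 0.10) and *Slc7a13* (1.03 ± 0.23), while 5 passed the test without the 2 *Cyp11b1* libraries (median 0.71 instead of 0.86) and 6 without LepK replicate 1. LepK stayed below WTK in 11 (10 without the *Alb* library), with *Slc5a2* at −1.73 ± 0.12 and *Slc5a12* at −1.69 ± 0.15. Of the 8 distal nephron and collecting duct genes, 3 fell in IgGK against WTK (*Slc12a3* by 1.03 and *Aqp3* by 0.89 on the log2 scale), but 1 with scaling by library size alone, where the median of the list turned from −0.18 to 0.26. Compared with IgGK, 6 of these rose in LepK, among them *Aqp3* (0.72 ± 0.11) and *Slc4a1* (0.71 ± 0.10), but 2 with that scaling, and 2 passed the test without the *Cyp11b1* libraries (median 0.50 instead of 0.61). In LepK against WTK *Calb1* rose (0.51 ± 0.11), while 2 or 3 of the list did without IgGK replicate 1, IgGK replicate 2 or LepK replicate 1.

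Other cells moved with the 10 genes in kidney. All 12 macrophage markers rose in IgGK against WTK (*Lyz2* 4.84 ± 0.21, *Itgam* 3.97 ± 0.31), and their sum went from 235 to 278 normalized CPM in WTK to 2167 to 2763 in IgGK and 766 to 1131 in LepK. Under LepAb 11 fell against IgGK, led by *Ctss* (−1.52 ± 0.17) and *Lyz2* (−1.47 ± 0.18), and 11 stayed above WTK, with *Lyz2* at 3.37 ± 0.20 and *Itgam* at 2.78 ± 0.31. All 10 fibroblast markers rose in IgGK against WTK (*Col3a1* 3.91 ± 0.21, *Col1a1* 3.88 ± 0.23), 8 fell in LepK against IgGK (*Col3a1* −1.52 ± 0.19, *Col1a1* −1.24 ± 0.21), and their sums were 229 to 294, 1506 to 1715 and 576 to 926 normalized CPM in WTK, IgGK and LepK. All 10 fibroblast markers stayed above WTK in LepK, with *Col1a1* at 2.65 ± 0.22 and *Col3a1* at 2.39 ± 0.20. Without the 2 *Cyp11b1* libraries, 8 macrophage genes (median −1.09 instead of −1.21) and 3 fibroblast genes (−0.83 instead of −0.99) passed the test between LepK and IgGK. Without the *Alb* library, 11 macrophage and 9 fibroblast genes were called above WTK in LepK. *Vcam1*, *Dpysl3*, *Myof* and *Clu* are also expressed by cells outside the tubule, and the part of these cells in their kidney values was not tested.

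Lymphocyte and neutrophil markers were low in kidney. Of 9 lymphocyte markers 6 rose in IgGK against WTK (*Cd3e* 2.81 ± 0.53, *Cd3g* 2.55 ± 0.33), 1 fell in LepK against IgGK (*Cd3d*, −1.14 ± 0.31) and 5 (4 without the *Alb* library) stayed above WTK, *Cd3e* at 2.40 ± 0.53 and *Cd2* at 2.31 ± 0.37 among them. Of the 10 neutrophil markers 4 could be tested, and the whole list summed to 2.01 to 2.28 normalized CPM in WTK, 16.9 to 25.6 in IgGK and 6.98 to 9.89 in LepK. All 4 rose in IgGK against WTK (*Cxcr2* 3.92 ± 0.95, *S100a8* 3.49 ± 0.66) and fell in LepK against IgGK (*Cxcr2* −2.60 ± 0.82, *S100a8* −2.55 ± 0.60), with a median of −2.12. Without the 2 *Cyp11b1* libraries the median was −1.62 and none passed the test, and 2 of the 4 were then called in IgGK against WTK. Leaving out any 1 kidney library left 1 (without IgGK replicate 2) to 3 of the 4 calls between LepK and IgGK, and the *Cd3d* call was lost without IgGK replicate 2 or 3 and without LepK replicate 1 or 3. *Csf3r* was the 1 above WTK in LepK (2.24 ± 0.20), and 2 were without WTK replicate 2. The defining neutrophil genes *Ly6g*, *Mpo*, *Elane* and *Camp* were at 0 in WTK, *Ly6g*, *Ngp* and *Camp* in IgGK and *Mpo* in LepK. Of 8 endothelial markers 3 fell in IgGK against WTK, led by *Kdr* (−1.20 ± 0.13) and *Flt1* (−0.56 ± 0.07), none were called in LepK against IgGK, and *Kdr* stayed below WTK in LepK (−0.89 ± 0.13). With scaling by library size alone 1 endothelial marker rose and 1 fell in IgGK against WTK. Of 9 lung epithelium markers 4 could be tested in kidney, where *Foxj1*, of ciliated cells, and *Ager* rose (5.64 ± 0.53 and 1.66 ± 0.20) and *Abca3* fell (−1.23 ± 0.11) in IgGK against WTK. The same 3 were called in LepK against WTK, at 4.82 ± 0.54, 1.55 ± 0.20 and −1.02 ± 0.11. *Sftpc*, *Sftpa1* and *Scgb1a1* were at 0 in WTK and LepK, and *Sftpa1* in IgGK.

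Relatives of the 10 genes in sequence were looked at next. Of 20 such genes 17 could be tested in kidney, and 11 rose and 2 fell in IgGK against WTK. The largest rises were those of *Dpysl4* (2.90 ± 0.71), a relative of *Dpysl3*, and *Havcr2* (2.43 ± 0.36), a relative of *Havcr1* found on immune cells. *Timd2*, another relative of *Havcr1*, fell from 91.0 to 50.9 normalized CPM (−0.84 ± 0.15), and *Icam2*, of the family of *Vcam1*, had a log2FC of −0.51 ± 0.17 and fell too. Without the 2 *Cyp11b1* libraries 5 were called up and 1 down, and without IgGK replicate 2 alone 7 up and 2 down. Under LepAb 3 fell against IgGK, led by *Dpysl4* (−2.17 ± 0.66) and *Icam1* (−0.62 ± 0.14), at a median of −0.35. None passed the test without the *Cyp11b1* libraries (median −0.18), and 1 was called down without IgGK replicate 1, LepK replicate 1 or LepK replicate 3. In LepK against WTK 5 rose, led by *Havcr2* (1.52 ± 0.36) and *Icam1* (1.03 ± 0.15). In lung 1 of 16 fell, *Dysf*, the relative of *Myof* (−0.68 ± 0.15).

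Ligands, receptors and signaling partners of the 10 gene products formed a list of 20, of which 19 could be tested in kidney. In IgGK against WTK 8 rose and 3 fell. *Trem2*, a receptor that binds clusterin, rose most (5.78 ± 0.31), then *Socs3*, a target and inhibitor of STAT3 signaling (2.95 to 29.6 normalized CPM, 3.33 ± 0.12). *Odc1*, which makes the diamine oxidase substrate putrescine, fell (2105 to 452 normalized CPM, −2.22 ± 0.27), as did *Hdc*, which makes histamine (−0.82 ± 0.13). Between IgGK and LepK, *Hdc* and *Hnmt*, of histamine methylation, were the 2 that rose (0.78 ± 0.13 and 0.66 ± 0.14), and 4 fell, led by *Trem2* (−1.39 ± 0.22) and *Itga4*, of the VCAM1 receptor (−0.91 ± 0.16). Without the *Cyp11b1* libraries none was called up and 1 down, and the median was 0.07 with and without them. In LepK against WTK 7 rose (6 without the *Alb* library) and 1 fell. *Trem2* was at 4.39 ± 0.32, *Rbp4*, the plasma carrier that docks on STRA6, at 2.78 ± 0.76 and *Odc1* at −1.61 ± 0.26. Which of the 7 was lost without the *Alb* library is not given here, and the part of that library in the *Rbp4* value was not tested. In lung *Rbp4* (1.13 ± 0.26) and *Rab27b*, which the *Sytl2* product binds (0.88 ± 0.14), rose and *Lrp8* fell (−1.87 ± 0.44). *Slc22a17*, a receptor for the *Lcn2* product, is named here after its values were seen and was not called in any comparison, with log2FC from −0.25 ± 0.07 in IgGK against WTK to 0.21 ± 0.07 in LepK against IgGK.

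Likeness to the 10 genes over all 15 libraries was measured as Pearson's r of a gene's log2 CPM with the mean of the 10 standardized profiles. For this, CPM was scaled by TMM over all 15 libraries together, unlike the normalized CPM above. It was taken among 16439 other genes with a mean of at least 1 CPM. The 5 most alike were *Wsb1* (r = 0.989), *Mmp23* (0.976), *Smpdl3b* (0.970), *Sox9* (0.968) and *Mex3a* (0.966). The 10 genes themselves, each a part of that mean, ran from 0.603 (*Lcn2*) and 0.641 (*Myof*), the genes with higher lung than kidney levels, to 0.979 (*Vcam1*) and 0.988 (*Clu*). The libraries share organs and groups, so these values describe group levels and carry no test.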

How the data were processed

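RNA from kidney (WTK, IgGK, LepK) and lung (IgGL, LepL) was sequenced as poly(A)-enriched, non-directional libraries, 3 per group. The deposited table holds whole-number read counts per gene and FPKM values, which the authors received from the sequencing provider. The submitters' processing notes name GRCm39 and DESeq2, and the aligner and counter are not given in the sources used here. The 15 columns of the authors' own comparisons (fold changes, p-values, group means) were not used. Groups came from the sample titles and labels, which do not say whether replicates are separate animals. The paper counts the lung replicates as mice and does not say this of the kidney replicates, so p-values measure the spread between libraries, which in kidney may be technical.

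The counts were filtered with filterByExpr (minimum count 10, minimum total 15), scaled by TMM and fitted with edgeR 4.0.16 (glmQLFit, glmQLFTest, R 4.3.3), the 9 kidney and 6 lung libraries apart. Calls needed both a log2 fold change beyond 0.5 in size and an adjusted p (Benjamini-Hochberg) under 0.05. The SE is the log2 fold change over the square root of F. The FPKM were used only to set genes or organs side by side. The script was tested on simulated data. Alternatives were other scalings, no filter, DESeq2 1.42.0, a replicate block, a stricter fold and each library left out. The libraries with *Cyp11b1* or *Alb* were left out after seeing the data. The 10 genes and all lists were chosen with earlier results of these data known. In each list and comparison, up to 2 called genes that rose most and 2 that fell most are named, and markers at 0. Motifs were also chosen in that knowledge, the TATA box after the others had been counted.

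Replicates differed beyond sampling noise (chi-square per gene 6.73 to 87.4). Same-numbered libraries did not deviate together in every pair (r from −0.0487 to 0.227 in kidney and −0.0968 to 0.116 in lung), so the numbers were not taken as pairs. Differently numbered libraries ran from −0.256 to 0.0762 in kidney and −0.102 to 0.157 in lung. Between IgGK and LepK, r was 0.227 for replicates 1, 0.215 for replicates 2 and −0.0487 for replicates 3. Replicate 1 of one of these groups with replicate 2 of the other gave −0.227 and −0.256. The batch label is the same for every library.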

Additional observations from a re-analysis of the deposited data

Results flagged for a closer look

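*Sytl2* moved in opposite directions in the 2 organs under LepAb. All 3 LepK kidneys were below the IgGK kidneys (log2FC −0.71 ± 0.10, SE), and all 3 LepL lungs were above the IgGL lungs (0.44 ± 0.16). The difference between the organs was not tested, because the kidney values entered the choice of the gene, and the lung change alone did not pass the test (edgeR adjusted p = 0.129).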

How the results depend on the processing

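In kidney the number of the 10 genes called was 10 for each contrast with WTK under each alternative run, and 6 to 9 in LepK against IgGK, except 3 at an absolute log2FC over 1, where the other lists held 29 calls instead of 68. Leaving out 1 library gave 7 to 8 calls there and 50 to 69 in the other lists. Over all genes in LepK against IgGK, 695 of 20021 were called down without IgGK replicate 2 and 1271 of 20242 without LepK replicate 2. With scaling by library size alone 2185 of 19593 were, and 428 at an absolute log2FC over 1. Against WTK, calls up over all genes were 7803 (IgGK) and 4782 (LepK) with that scaling, and 3061 and 1839 at the stricter fold. Without the 2 IgGK libraries that held *Cyp11b1* the other lists held 26, and *Vcam1* was not called (log2FC −0.75). With scaling by library size alone 11 of their calls were up and 58 down, instead of 18 and 50. In lung the count moved from 1 to 2 with no filter, 3 with DESeq2, 0 with the replicate block (*Dpysl3* at −0.59) and 0 at an absolute log2FC over 1, and from 0 to 2 without 1 library (2 without IgGL replicate 1, 0 without any other). Over all lung genes, no filter gave 1515 calls up and 1173 down of 35071 tested. Leaving out IgGL replicate 1 gave 1937 up and 1602 down of 20435. Leaving out any other lung library gave at most 18 up and 4 down (of 20508, without LepL replicate 1). The other lists in lung moved from 24 to 53 with no filter, 47 with DESeq2 and 0 with the replicate block, and from 0 to 66 without 1 library. The causes were not tested, apart from the fewer libraries. With the block, edgeR left 4815 of the 19617 lung genes at an unadjusted p under 0.05 and called 4 of them, and in kidney it called 8 of the 10 genes in LepK against IgGK (*Stra6* was added, at −0.55). The *Cyp11b1* setting leaves 1 IgGK library, which is assumed to vary like the other groups. The sign of the log2FC in lung turned for *Lcn2* without IgGL replicate 2 (−0.19) or LepL replicate 1 (−0.11), in a range of −0.19 to 0.23 over the libraries left out, and for *Havcr1* without LepL replicate 1 (−0.24), in a range of −0.24 to 1.62.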
